A study of Caenorhabditis elegans with 16 samples.

Results

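The copper response of worms carrying cua-1(H828Q) was followed across 9787 genes in 8 of the 16 libraries of the series. These 8 were chosen by their labels: 4 libraries of cua-1(H828Q) worms kept on plates with 100 µM CuCl2, and 4 of the same genotype on plates with no added copper. The other 8 libraries hold the labelled control genotype on the same plates, also 4 with and 4 without 100 µM CuCl2. All were whole, synchronised Caenorhabditis elegans kept on NGM agar with Escherichia coli OP50 for 3 days at 20 °C. RNA was read by a 3′ digital mRNA sequencing service, so the missense allele cannot be seen in the counts. The control strain is not named, and the labels do not say whether the mutation was crossed into a clean background. Replicates are labelled biological, but nothing says they came from separate plates, so p-values measure the spread between these libraries.

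In worms cua-1 specifies a P-type ATPase that transports copper, the homolog of ATP7A and ATP7B, the human pumps altered in Menkes and Wilson disease. Such pumps take copper from a small chaperone protein, load it onto copper enzymes in the secretory pathway and move surplus copper out of the cytosol. In the worm the intestine takes up dietary metal and is also where yolk proteins, digestive enzymes and many immune proteins are made.

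Total counts ran from 3124207 to 3969132 in the 8 mutant libraries. A floor of 3 counts equalled 0.756 to 0.960 CPM by these totals. CPM values of genes are counts scaled to the TMM-normalised library size. 1 library stood apart: treated replicate 4. Its length balance, taken as median log2 CPM in long genes (above 3000 bp) less the same in short ones (under 800 bp), was -2.23, against 0.23 to 1.05 in the other 7 mutant libraries. Cytosolic ribosomal protein genes took 37.7% of its counts, against 24.8% to 31.0% in the other 7. It sat at 119.4 on a first principal component holding 66.3% of the variance of the mutant libraries, whereas the second component, with 15.2%, placed treated replicates 1 to 3 between -32.14 and -25.50 and the 4 untreated libraries between 15.36 and 19.01. Treated replicate 4 stood at 18.80 on the second component, within the range of the untreated libraries. Results are therefore given from all 16 libraries and again from the 7 mutant libraries left without it. Among those 7, the treated libraries still had the lower length balance, 0.23 to 0.52 against 0.62 to 1.05, and the higher ribosomal share, 29.7% to 31.0% against 24.8% to 27%, with no overlap. The part that this shift played in the results below was not tested except where length-adjusted values are given.

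**Figure D1:**
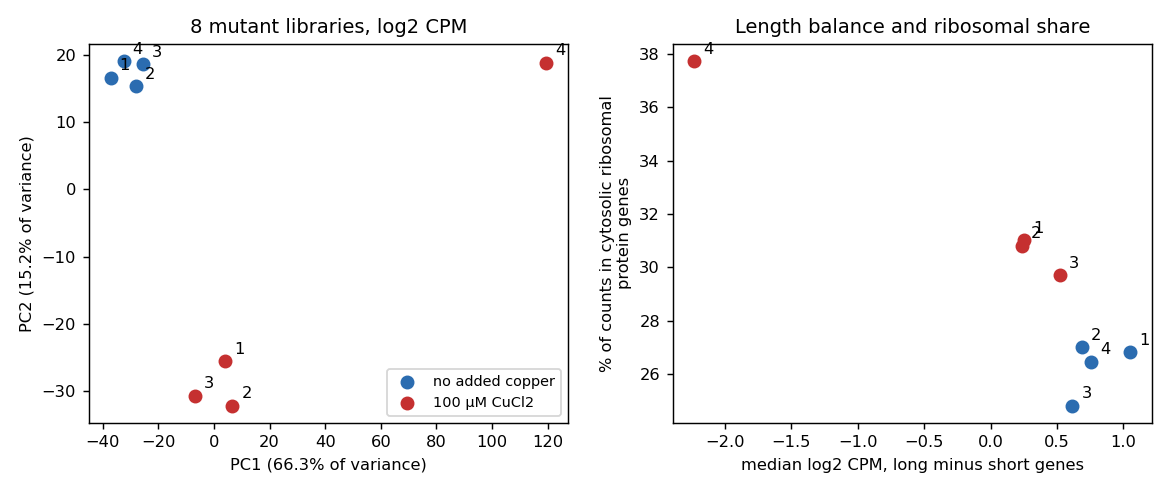
Left, the 8 mutant libraries on the first 2 principal components of log2 CPM. Right, each library's length balance (median log2 CPM, long less short genes) against the percentage of counts in cytosolic ribosomal protein genes. Numbers are replicates. Treated replicate 4 lies alone at 119.4 on the first component and at -2.23 in length balance, and treated replicates 1 to 3 lie apart from the 4 untreated libraries in both panels. On the second component treated replicate 4 lies at 18.80, level with the untreated libraries.

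Copper raised genes of infection response and lowered yolk protein genes in the mutant. With edgeR's quasi-likelihood test on all 16 libraries and a Benjamini-Hochberg adjusted p under 0.05, 219 of 9787 genes were called, which is 2.24% of those tested. Of these, 174 genes rose, or 1.78%, and 45 fell, or 0.46%. Of the changes called in this fit, 171 rises and 41 falls exceeded 1 on the log2 scale. The 4 treated libraries did not overlap the 4 untreated ones for 218 of the 219 called genes, against 1927 of all 9787. The median log2 fold change of all genes was 0.02.

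Leaving out treated replicate 4 and the control libraries raised the number of calls. In the 7 mutant libraries 754 genes were called higher, 7.7% of those tested, and 674 lower, 6.89%, of which 406 and 194 exceeded 1 on the log2 scale. All 219 genes called from 16 libraries were among them, in the same direction. The median biological coefficient of variation was 0.148 in that fit and 0.333 in the fit to 16 libraries. When treated replicate 4 alone was left out of the 16, 171 genes were called, 161 of them shared with the 219. Other single libraries mattered as much: 112 to 144 genes were called when 1 of the untreated mutant replicates 1 to 4 was left out, and 121 without treated replicate 2. Falls numbered 20 without treated replicate 1. The median transcript length was 1375 bp over all genes tested, 969 bp for rises and 1276 bp for falls, and 931 and 1705 bp for rises and falls in the 7 libraries. With counts adjusted for transcript length in the 7 libraries, an adjustment chosen after the data were seen, 763 genes were called higher and 629 lower.

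**Figure D2:**
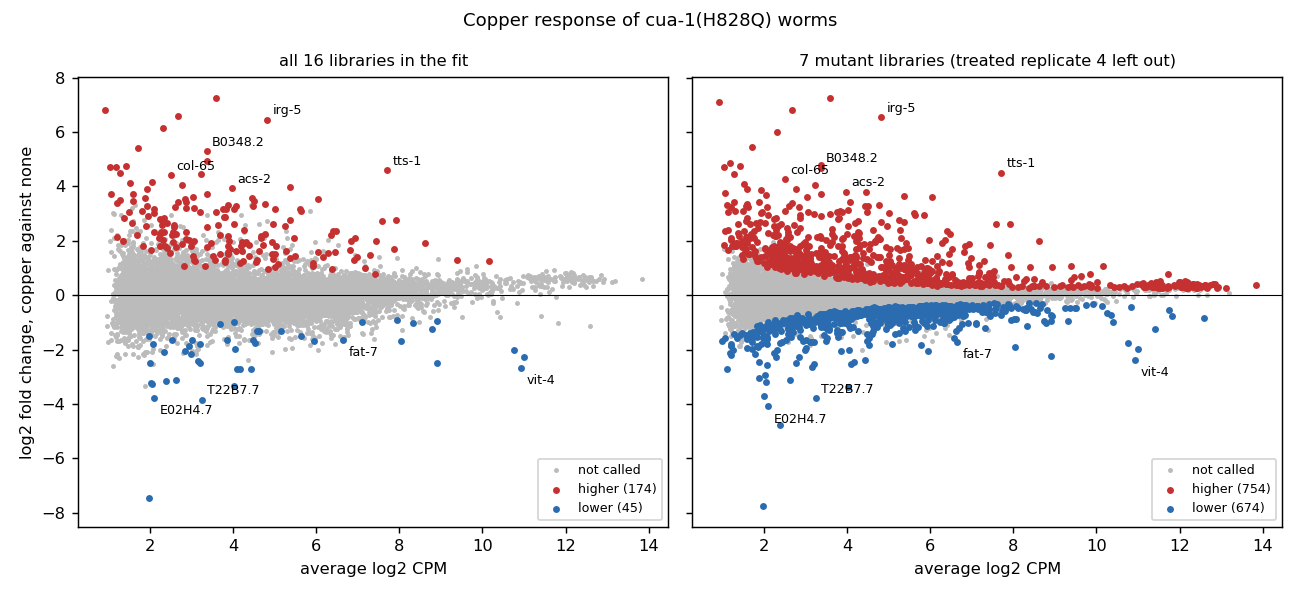
Log2 fold change of copper against none in the mutant (vertical axis) against average log2 CPM (horizontal axis) for 9787 genes, from the fit to 16 libraries (left) and to 7 mutant libraries (right). Red and blue points are genes called higher (174 and 754) and lower (45 and 674) at an adjusted p under 0.05. irg-5 lies near the top and vit-4 is the abundant gene with a fall in both panels.

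Infection response genes rose. Of 18 tested genes of this list, which holds secreted CUB-like proteins and other genes known to respond to bacterial infection, 10 rose and 0 fell, with a median log2 fold change of 1.65 against 0.02 for all genes. In the 7 libraries 12 were called higher and 0 lower, and 12 higher and 0 lower after adjustment for length. Their median transcript length was 1128.5 bp. Like the other lists, this one was drawn up with earlier results of these data known.

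irg-5 (chromosome V, 13737010 to 13738474), an infection response gene, stood at 0.882, 1.13, 2.08 and 0.258 CPM in untreated replicates 1 to 4. In treated replicates 1 to 4 it stood at 80.0, 121, 112 and 78.8 CPM. Every treated library lay far above every untreated one, and treated replicate 4 was the lowest of the treated 4. The log2 fold change was 6.45 ± 0.41 (standard error, n = 4 and 4, edgeR adjusted p = 1.19e-07), and 6.55 ± 0.26 in the 7 libraries.

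dod-24, a CUB-like gene, read 7.50, 16.9, 27.3 and 12.9 CPM without copper and 168, 233, 195 and 148 CPM with it. The groups were well apart, with a rise of 3.53 ± 0.36 on the log2 scale (adjusted p = 3.77e-05). C32H11.4, a further CUB-like gene, rose from a mean of 5.05 ± 1.06 (SD, n = 4) to 37.1 ± 6.999 CPM, a log2 fold change of 2.87 ± 0.29 (adjusted p = 3.77e-05). irg-4 rose from 4.19 ± 1.56 to 50.5 ± 20.5 CPM, or 3.58 ± 0.46 on the log2 scale (adjusted p = 0.00032). Its lowest treated value, 21.2 CPM in replicate 4, was still above the highest untreated value of 6.39 CPM.

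C-type lectins, carbohydrate-binding proteins many of which are made in response to microbes, mostly rose where they were called. Of 58 tested, 13 rose and 2 fell, with a median log2 fold change of 0.51, and 21 were called higher and 3 lower in the 7 libraries. clec-45 had 3 counts in all untreated mutant libraries together and 489 in the treated ones, a ratio of 180 after scaling to library totals, with an exact 95% counting interval of 61.4 to 878. This interval covers counting error only. clec-3 read 0.221, 0.678, 2.08 and 1.03 CPM without copper and 24.3, 29.6, 28.9 and 42.0 CPM with it, a log2 fold change of 4.95 ± 0.68 (adjusted p = 0.000409).

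For clec-52 the treated libraries read 41.5, 44.5, 40.7 and 44.5 CPM against 4.19, 5.87, 5.46 and 3.60 CPM without copper. Its rise was 3.15 ± 0.33 on the log2 scale (adjusted p = 4.81e-05). clec-66 rose from 11.5 ± 4.37 to 71.5 ± 11.59 CPM, or 2.63 ± 0.36 (adjusted p = 0.000409). clec-218 went the other way, from 10.4, 11.1, 8.32 and 10.6 CPM to 1.23, 1.43, 0.736 and 1.09 CPM, a log2 fold change of -3.12 ± 0.48 (adjusted p = 0.00117).

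Genes of small antimicrobial peptides also rose, 8 of 34 tested with 0 lower and a median of 1.03. In the 7 libraries 18 were called higher and 2 lower, and 17 and 2 after adjustment for length. These transcripts are short, with a median of 362.5 bp. fipr-4, from a family related to fungus-induced peptides, read 1.54, 1.13, 2.34 and 2.83 CPM without copper and 14.5, 12.4, 18.1 and 41.2 CPM with it. The groups were apart, and the largest value came from treated replicate 4. The log2 fold change was 3.44 ± 0.46 (adjusted p = 0.000356) and 2.93 ± 0.32 without that library.

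cnc-4, a caenacin peptide gene, rose from 2.27 ± 0.99 to 19.3 ± 5.18 CPM, or 3.06 ± 0.43 on the log2 scale (adjusted p = 0.000545). abf-4, of the antibacterial factor family, had 2 counts without copper and 61 with it, a ratio of 33.8 (95% counting interval 8.96 to 285). The lysozyme gene lys-2 read 57.8, 93.1, 138 and 69.5 CPM without copper and 549, 560, 549 and 786 CPM with it. All treated libraries were above all untreated ones, by 2.77 ± 0.34 on the log2 scale (adjusted p = 0.000178).

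Of 16 saposin-like genes, 1 was called higher and 1 lower, and 4 and 2 in the 7 libraries. spp-18 rose from 12.77 ± 1.56 to 54.4 ± 22.8 CPM (2.09 ± 0.44, adjusted p = 0.0142), and its call ended without untreated replicate 1, 2 or 4 (adjusted p 0.0573 to 0.0617). spp-4 fell from 54.8 ± 3.61 to 17.2 ± 8.18 CPM (-1.68 ± 0.35, adjusted p = 0.013), and the call ended without treated replicate 1 (adjusted p = 0.0534).

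**Figure D3:**
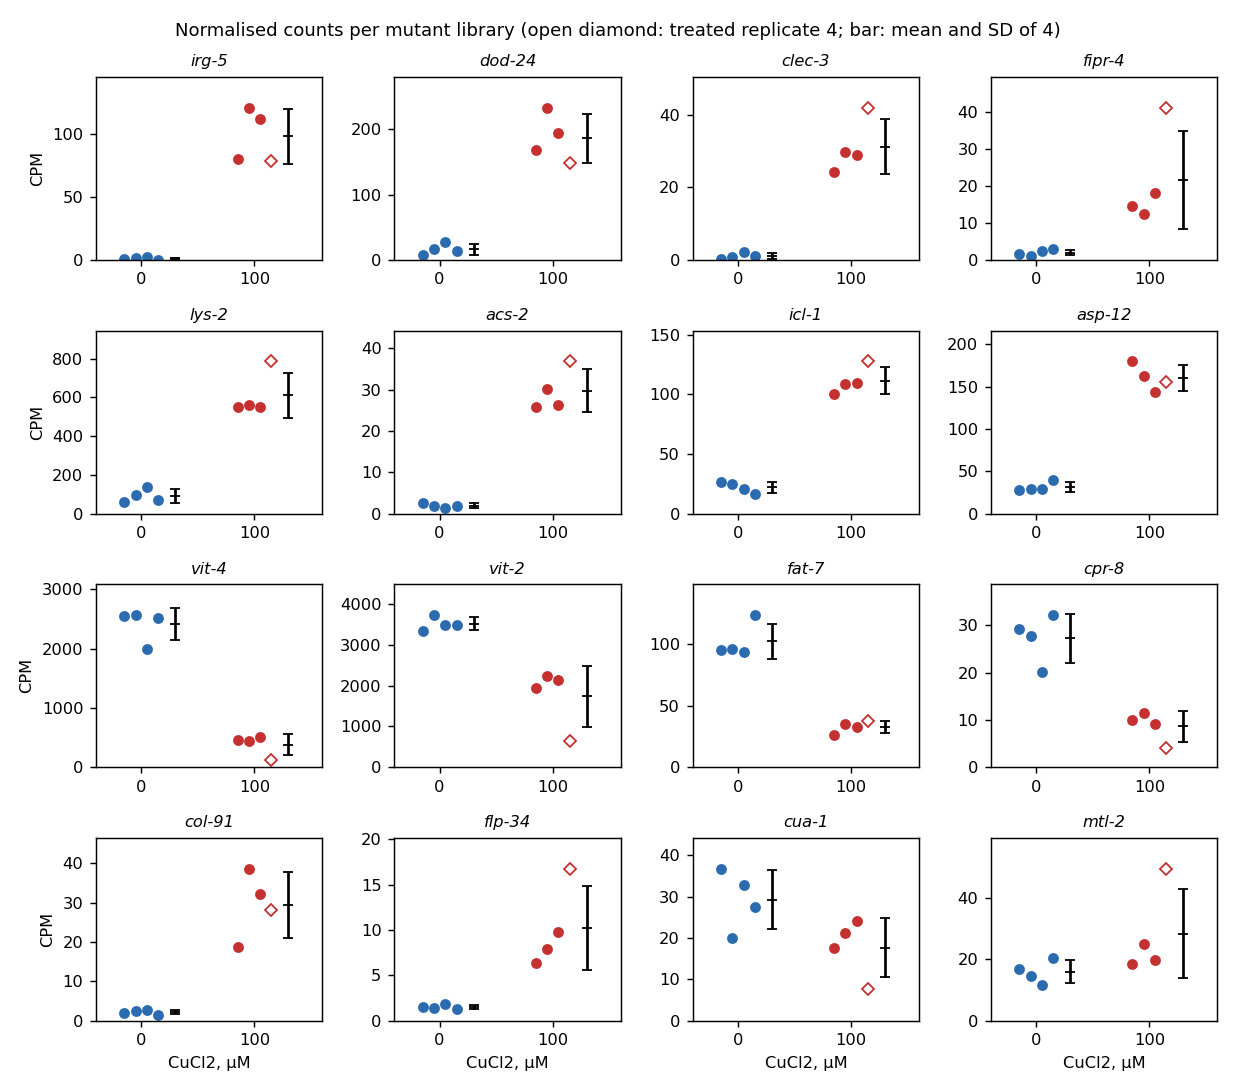
CPM of 16 genes in each mutant library at 0 and 100 µM CuCl2 (linear axes from 0). Points are libraries, the open diamond is treated replicate 4, and bars are the mean and SD of 4 libraries. In irg-5 and fat-7 the diamond lies with or near the other treated libraries, while in lys-2, vit-2 and mtl-2 it lies apart from them, at 786, 634 and 49.6 CPM.

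Yolk protein genes fell together. Vitellogenins are lipoproteins made in the adult intestine and taken up by oocytes. Of the 6 genes, 4 fell in the fit to 16 libraries and 0 rose, and all 6 were called lower in the 7 libraries, also after adjustment for length. Their median log2 fold change was -2.14, and -1.86 in the 7 libraries. The summed level of the 6 genes ran from 15490 to 18600 CPM in the untreated libraries, from 7379 to 7837 in treated replicates 1 to 3, and stood at 1801 in treated replicate 4. These are long transcripts, with a median of 4935 bp, and treated replicate 4 had the lowest length balance of the 16 libraries. vit-3, vit-4 and vit-5 are near-identical, so the authors' counting may have divided reads among them.

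vit-4 read 2549, 2570, 2002 and 2525 CPM in untreated replicates 1 to 4 and 450, 443, 512 and 115 CPM in treated replicates 1 to 4. The groups were well apart even without the last library. The log2 fold change was -2.66 ± 0.38 (adjusted p = 0.000623), and -2.38 ± 0.10 in the 7 libraries. vit-1 read 660, 620, 641 and 641 CPM without copper and 122, 158, 135 and 44.2 CPM with it, a change of -2.48 ± 0.29 (adjusted p = 0.000123).

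vit-5 fell by 2.27 ± 0.37 (adjusted p = 0.0018) and vit-3 by 2.01 ± 0.35 (adjusted p = 0.00337) on the log2 scale. vit-2 and vit-6 were not called from 16 libraries, with log2 fold changes of -1.02 ± 0.30 (adjusted p = 0.105) and -1.14 ± 0.41 (adjusted p = 0.196). In the 7 libraries both were called lower, at -0.75 ± 0.08 (adjusted p = 6.96e-07) and -0.83 ± 0.09 (adjusted p = 2.39e-07).

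Single genes of fat metabolism changed in both directions. Of 31 tested genes of fat breakdown and the glyoxylate cycle, 3 rose and 0 fell (median -0.02), against 1.78% and 0.46% of all genes. In the 7 libraries 5 were called higher and 3 lower (median -0.11), and 5 and 4 after adjustment for length. Over all genes 7.7% were called higher and 6.89% lower in the 7. Of 20 genes of fatty acid synthesis, 0 rose and 2 fell, with a median of -0.27. In the 7 libraries 1 was called higher and 11 lower, and 1 and 10 after adjustment for length. acs-2, a mitochondrial acyl-CoA synthetase known to be induced by fasting, read 2.65, 1.81, 1.3 and 1.80 CPM without copper and 25.8, 30.1, 26.2 and 36.9 CPM with it. All treated libraries were above the untreated ones, by 3.94 ± 0.51 on the log2 scale (adjusted p = 0.00032). icl-1, the bifunctional glyoxylate cycle enzyme, rose from 21.8 ± 4.36 to 112 ± 11.56 CPM, or 2.35 ± 0.46 (adjusted p = 0.00848).

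fat-7, a stearoyl-CoA desaturase, read 95.2, 96.0, 93.8 and 123.8 CPM without copper and 25.8, 35.1, 32.6 and 37.2 CPM with it. The treated libraries lay close together below all untreated ones, a log2 fold change of -1.65 ± 0.30 (adjusted p = 0.00567). acs-1, an acyl-CoA synthetase for branched-chain fatty acids, changed by -1.50 ± 0.37 (adjusted p = 0.0377). That call was fragile: it ended without any of the 8 mutant libraries or treated control replicates 2, 3 and 4 (adjusted p 0.0534 to 0.102), but in the 7 mutant libraries the change was -1.27 ± 0.13 (adjusted p = 2.61e-07). The desaturase fat-6 and the elongase elo-6 had log2 fold changes of -0.89 ± 0.25 (adjusted p = 0.088) and -1.49 ± 0.43 (adjusted p = 0.0905), with no overlap between treated and untreated libraries. Both were called lower in the 7 libraries, with adjusted p of 2.15e-06 and 3.56e-06.

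Digestive proteases split in direction. Of 18 tested gut proteases, 3 rose and 4 fell, and 5 were called higher and 9 lower in the 7 libraries. asp-12, an aspartyl protease, read 27.3, 29.4, 28.9 and 39.65 CPM without copper and 180, 162, 143 and 155 CPM with it, a log2 fold change of 2.35 ± 0.26 (adjusted p = 8.10e-05). asp-14, of the same family, rose from 73.9 ± 22.7 to 486 ± 80.5 CPM, or 2.72 ± 0.37 (adjusted p = 0.000371). The groups were apart for both.

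Among those that fell, the cathepsin B-like gene cpr-8 went from 27.3 ± 5.18 to 8.66 ± 3.25 CPM, or -1.64 ± 0.34 (adjusted p = 0.0128). cpr-6, of the same family, went from 424 ± 50.2 to 222 ± 18.3 CPM, or -0.94 ± 0.20 (adjusted p = 0.0158). The cpr-6 call ended without untreated replicate 2, 3 or 4 or treated replicate 1 (adjusted p 0.0506 to 0.0656). asp-17 read 7.94, 15.4, 14.6 and 9.53 CPM without copper and 0.245, 0.717, 0.245 and 4.75 CPM with it, the last value being treated replicate 4. Its fall was -3.14 ± 0.67 (adjusted p = 0.0158) and -4.78 ± 0.48 in the 7 libraries, and the call ended without untreated replicate 2 or 3 or treated replicate 1, 2 or 3 (adjusted p 0.0505 to 0.0752).

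Detoxification genes called from 16 libraries also split, where 1.78% of all genes were called higher and 0.46% lower. Of 25 glutathione S-transferases, 4 rose and 0 fell, with a median of 0.42. In the 7 libraries 5 were called higher and 0 lower (median 0.16), and 4 and 1 after adjustment for length (median 0.08). Of 28 UDP-glucuronosyltransferases, which attach sugar to lipophilic compounds, 0 rose and 2 fell, with a median of -0.26. In the 7 libraries 1 was called higher and 7 lower, and 2 and 7 after adjustment for length. Over all genes 7.7% were called higher and 6.89% lower in the 7. Median transcript lengths of these families were 756 and 1718.5 bp. gst-38 read 1.54, 2.94, 1.82 and 1.03 CPM without copper and 20.6, 12.7, 20.6 and 33.95 CPM with it, a rise of 3.54 ± 0.57 (adjusted p = 0.00192). gst-24 rose by 2.596 ± 0.44 (adjusted p = 0.00303). gst-35 had 3 counts without copper and 139 with it, a ratio of 51.3 (95% counting interval 17.2 to 252).

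ugt-22 fell from 37.3 ± 6.94 to 11.03 ± 3.66 CPM (-1.74 ± 0.37, adjusted p = 0.015), a call that ended without untreated or treated replicate 1 (adjusted p 0.0618 and 0.0547). ugt-62 went from 14.2 ± 7.34 to 2.71 ± 1.12 CPM (-2.40 ± 0.48, adjusted p = 0.00962). The cytochrome P450 gene cyp-35A2 read 26.7, 22.4, 13.5 and 24.2 CPM without copper and 3.19, 2.39, 5.64 and 1.46 CPM with it, with no overlap and a change of -2.73 ± 0.42 (adjusted p = 0.00125).

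msra-1, a methionine sulfoxide reductase that repairs oxidised proteins, rose from 155, 206, 205 and 176 CPM to 673, 868, 716 and 550 CPM. The change was 1.92 ± 0.32 (adjusted p = 0.00268), and it was the 1 called gene of 24 antioxidant genes. sqst-1, the worm p62 autophagy receptor, rose from 6.21 ± 0.61 to 17.7 ± 4.64 CPM (1.51 ± 0.25, adjusted p = 0.00268), the 1 called gene of 46 in autophagy and lysosome. With 2.24% of all genes called from 16 libraries, 1 call does not set either list apart. In the 7 libraries 2 antioxidant genes were called higher and 1 lower, and 3 and 6 of autophagy and lysosome. Over all genes 7.7% were called higher and 6.89% lower in the 7.

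Genes of copper handling were not called in the fit to 16 libraries. Of 25 tested, 0 were higher and 0 lower by edgeR, with a median log2 fold change of 0.13, and in the 7 libraries 1 was called higher and 3 lower. Over all genes 2.24% were called from 16 libraries, and 7.7% were called higher and 6.89% lower in the 7. At those shares the counts do not set a list of this size apart. In 16 libraries 5 had an unadjusted p under 0.05, DESeq2 called 0 and limma-voom 1. cua-1 itself (chromosome III, 13439730 to 13455307) read 36.8, 20.1, 32.8 and 27.6 CPM without copper and 17.7, 21.3, 24.03 and 7.67 CPM with it. These groups overlapped, and the log2 fold change of -0.72 ± 0.41 did not pass the test (adjusted p = 0.509).

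cuc-1, the copper chaperone, read 35.1, 40.2, 40.8 and 34.8 CPM without copper and 29.7, 27.7, 22.8 and 64.6 CPM with it. Treated replicate 4 alone lay above the untreated libraries, and the other 3 lay below them. The log2 fold change was -0.07 ± 0.34 (adjusted p = 0.94) from 16 libraries and -0.51 ± 0.15 (adjusted p = 0.0248) from 7. F58G6.3, of the CTR family of copper importers, read 21.6, 34.8, 34.6 and 33.2 CPM against 14.5, 14.6, 12.5 and 27.4 CPM, again with replicate 4 apart. Its change was -0.86 ± 0.37 (adjusted p = 0.355), and -1.17 ± 0.19 (adjusted p = 0.000131) in the 7 libraries. chca-1, a further CTR-type importer, was at -0.90 ± 0.39 (adjusted p = 0.357) and -1.14 ± 0.41 (adjusted p = 0.0976) in the 7. It was called lower in 16 libraries with the length balance as a covariate (edgeR adjusted p = 0.0224).

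Metal and stress reporters were likewise not called. Of 13 metal response genes 0 were higher and 0 lower by edgeR, with a median of 0.15, 2 had an unadjusted p under 0.05, and DESeq2 called 1 and limma-voom 0. With 2.24% of all genes called by edgeR, 0 calls of 13 do not set this list apart either. The metallothionein gene mtl-2 had a mean of 15.9 ± 3.74 CPM (SD, n = 4), at most 20.6, without copper, and read 18.6, 25.1, 19.9 and 49.6 CPM with it, with overlap and a log2 fold change of 0.82 ± 0.49 (adjusted p = 0.522). mtl-1 had 15 counts over all 16 libraries, numr-1 had 0, and smf-3 (9), ftn-1 (46) and hsp-16.2 (51) were also too low to test.

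The superoxide dismutase gene sod-1 had a log2 fold change of 0.48 ± 0.34 (adjusted p = 0.571) and ftn-2, a ferritin, -0.15 ± 0.26 (adjusted p = 0.798). hsp-4, the ER chaperone, had -0.12 ± 0.27 (adjusted p = 0.843), and the mitochondrial chaperone hsp-6 had -0.23 ± 0.24 (adjusted p = 0.678). gst-4, a reporter of oxidative stress, had 0.52 ± 0.42 (adjusted p = 0.61). None of these 5 genes, nor mtl-2, was called in the 7 libraries. After adjustment for length in the 7, ftn-2 was called lower (edgeR adjusted p = 0.0146) and the others were not called.

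**Figure D4:**
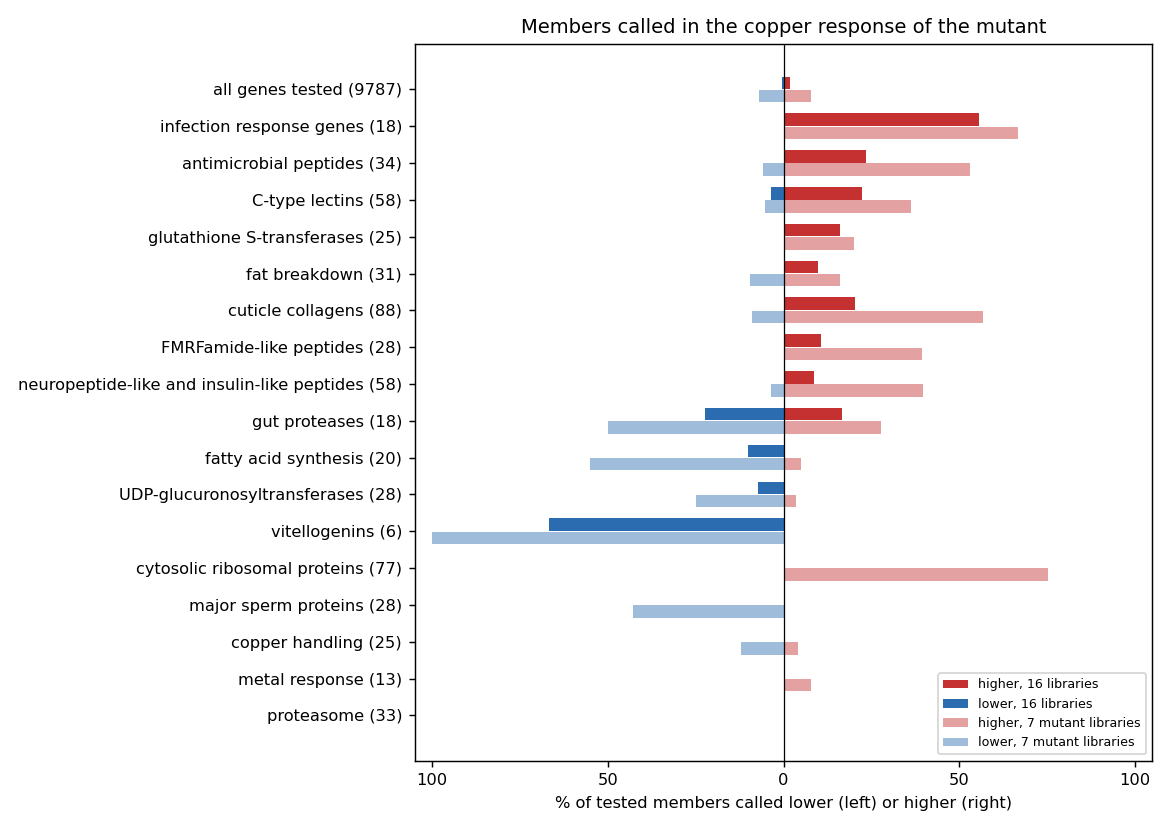
Percentage of the tested members of 18 groups of genes (number tested in brackets) called higher (to the right, red) or lower (to the left, blue) with copper in the mutant, from 16 libraries (dark) and 7 mutant libraries (pale). The top row is all 9787 genes. Infection response genes have 10 of 18 members called higher, and the vitellogenins have 4 of 6 called lower.

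Cuticle collagens rose. Of 88 tested collagen genes, which encode the extracellular coat laid down at each molt, 18 rose and 0 fell, with a median of 1.12. In the 7 libraries 50 were called higher and 8 lower, and 50 and 8 after adjustment for length. col-91 read 1.98, 2.48, 2.86 and 1.54 CPM without copper and 18.6, 38.7, 32.1 and 28.1 CPM with it, a log2 fold change of 3.71 ± 0.61 (adjusted p = 0.00227). col-162 rose by 3.62 ± 0.63 (adjusted p = 0.00374), col-161 by 2.88 ± 0.50 (adjusted p = 0.00337) and col-65 by 4.41 ± 0.72 (adjusted p = 0.00208). Reads of near-identical collagens are of uncertain assignment. The summed level of the list ran from 45870 to 53200 CPM without copper and from 51970 to 57310 in treated replicates 1 to 3, with 98790 in replicate 4.

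Collagens named for mutant body shape were not called from 16 libraries, 0 of 12 in either direction against 2.24% of all genes, with a median of 1.22. Of these, 6 had an unadjusted p under 0.05, DESeq2 and limma-voom each called 1, and 6 were called higher in the 7 libraries. dpy-13 read 19.6, 18.8, 17.2 and 16.7 CPM without copper and 58.2, 108, 122 and 82.5 CPM with it, at 2.35 ± 0.68 (adjusted p = 0.0913), and at 2.40 ± 0.21 in the 7 libraries (adjusted p = 1.74e-06). dpy-5 had 1.86 ± 0.75 (adjusted p = 0.309), and 1.92 ± 0.18 (adjusted p = 2.39e-07) in the 7. The treated and untreated libraries did not overlap for either gene.

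Neuropeptide genes rose where they were called from 16 libraries. Of 28 FMRFamide-like peptide genes 3 rose and 0 fell (median 0.84), and 11 were called higher in the 7 libraries with 0 lower. Of 58 neuropeptide-like and insulin-like genes 5 rose and 0 fell (median 0.92), and 23 were called higher and 2 lower in the 7. Both groups are short, with median lengths of 641 and 533 bp, and 10 and 22 genes were called higher in the 7 libraries after adjustment for length. flp-34 read 1.54, 1.36, 1.82 and 1.29 CPM without copper and 6.38, 7.89, 9.81 and 16.8 CPM with it, a rise of 2.72 ± 0.54 (adjusted p = 0.00949).

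nlp-17 rose from 10.3 ± 0.77 to 37.2 ± 13.7 CPM (1.84 ± 0.33, adjusted p = 0.00398). nlp-33, an epidermal peptide with antimicrobial activity, rose from 73.6 ± 7.38 to 182 ± 35.9 CPM (1.31 ± 0.28, adjusted p = 0.0158). Its call ended without any 1 untreated replicate or treated replicate 2 (adjusted p 0.0508 to 0.0786). flp-8 rose by 1.89 ± 0.42 (adjusted p = 0.0214), a call that ended without untreated replicate 2, 3 or 4 or treated replicate 3 or 4 (adjusted p 0.0526 to 0.0976).

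Ribosomal protein and sperm genes gave 0 calls from 16 libraries, where 2.24% of all genes were called, and many from 7. Of 77 cytosolic ribosomal protein genes 16 had an unadjusted p under 0.05, and DESeq2 and limma-voom called 0. All 77 fold changes were above 0 from 16 libraries, with a median of 0.59 on the log2 scale. In the 7 libraries 58 were called higher and 0 lower (median 0.32), and 26 higher and 0 lower after adjustment for length (median 0.24). rps-8 read 2891, 3046, 2605 and 2738 CPM without copper and 3988, 4224, 3906 and 8216 CPM with it, or 0.85 ± 0.34 (adjusted p = 0.298). rpl-23A.1 had 0.97 ± 0.34 (adjusted p = 0.197), and 0.72 ± 0.10 (adjusted p = 8.46e-06) in the 7.

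Major sperm protein genes, near-identical copies whose reads cannot be assigned with certainty, gave 0 calls of 28 from 16 libraries by edgeR, DESeq2 or limma-voom, and 0 had an unadjusted p under 0.05. In the 7 libraries 0 were called higher and 12 lower, and 0 and 17 after adjustment for length. Their summed level was 2185 to 2379 CPM without copper, 1723 to 1913 in treated replicates 1 to 3 and 4131 in replicate 4. msp-53 had a log2 fold change of -0.77 ± 0.39 (adjusted p = 0.452) and -1.09 ± 0.32 (adjusted p = 0.0225) in the 7. spe-11, a sperm-supplied factor of the embryo, had -1.003 ± 0.50 (adjusted p = 0.443) and -0.80 ± 0.21 (adjusted p = 0.00921).

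Further genes among the largest changes are given here. B0348.2 read 0.661, 1.58, 0.780 and 0.258 CPM without copper and 15.7, 31.3, 20.4 and 70.1 CPM with it, a rise of 5.30 ± 0.74 (adjusted p = 0.000491). The long non-coding RNA tts-1 read 4.63, 7.46, 1.56 and 2.58 CPM against 88.6, 101, 97.3 and 114 CPM, or 4.599 ± 0.66 (adjusted p = 0.000643). Both rose in every treated library above every untreated one.

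Y54H5A.5 rose by 4.45 ± 0.50 (adjusted p = 8.10e-05), clc-11, a claudin-like gene, by 4.16 ± 0.63 (adjusted p = 0.00106), and F08G2.5 by 4.07 ± 0.52 (adjusted p = 0.000298). F19H6.5 had 3 counts without copper and 324 with it, a ratio of 120 (95% counting interval 40.6 to 583). mul-1, a mucin-like gene, had 3 and 228 counts, a ratio of 84.1 (28.4 to 411).

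Among falls, T22B7.7 read 39.2, 22.4, 14.8 and 30.9 CPM without copper and 1.96, 2.15, 1.72 and 1.46 CPM with it, a change of -3.84 ± 0.64 (adjusted p = 0.00264). drd-10 went from 41.4 ± 3.56 to 4.06 ± 1.26 CPM (-3.34 ± 0.39, adjusted p = 0.000123), and gba-4, a glucosylceramidase-like gene, from 34.7 ± 3.59 to 5.18 ± 2.78 CPM (-2.71 ± 0.42, adjusted p = 0.00135). E02H4.7 fell by 3.77 ± 0.60 (adjusted p = 0.00166), D1086.3 by 3.22 ± 0.61 (adjusted p = 0.00699) and Y40H7A.10 by 2.51 ± 0.39 (adjusted p = 0.00132).

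Y48E1B.8 had 110 counts without copper and 0 with it, at least 33.1-fold lower against a floor of 3 counts over the group. Its call ended without untreated replicate 1 or treated replicate 1 or 2 (adjusted p 0.0504 to 0.0585). The laminin alpha gene lam-3 went from 9.15 ± 3.38 to 0.915 ± 0.884 CPM (-3.26 ± 0.76, adjusted p = 0.0296), and that call ended without untreated replicate 1, 2 or 4 or treated replicate 1, 2 or 4 (adjusted p 0.0572 to 0.128). C33G8.2 went from 60.0 ± 17.6 to 8.88 ± 8.43 CPM (-2.73 ± 0.65, adjusted p = 0.0343). Its call ended without any 1 untreated mutant replicate, treated mutant replicate 1 or 2, or treated control replicate 2 (adjusted p 0.052 to 0.137).

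Tissue markers were called about as rarely as all genes from 16 libraries. Of 33 tested markers over 9 tissue lists, 1 rose and 0 fell, against 1.78% and 0.46% of all genes. In the 7 libraries 5 were called higher and 3 lower, against 7.7% and 6.89% of all genes. The one that rose from 16 libraries was ifb-2, an intestinal intermediate filament gene, from 122 ± 16.504 to 244 ± 40.2 CPM (1.003 ± 0.21, adjusted p = 0.0142). The intestine marker elt-2 went from 6.19 ± 1.13 to 15.5 ± 2.85 CPM (1.32 ± 0.37, adjusted p = 0.0789). It was called higher in the 7 libraries (1.39, adjusted p = 0.000176). The summed level of the 4 intestine markers ran from 547 to 646.8 CPM without copper and from 782.4 to 1159 with it. Most of that sum is act-5, an intestinal actin, at 462 and 644 CPM on average. The gut esterase gene ges-1 had a log2 fold change of -0.87 ± 0.37 (adjusted p = 0.351), from 11.39 ± 2.15 to 6.10 ± 3.50 CPM. Summed sperm markers ran from 84.95 to 104.9 and from 67.24 to 81.41 CPM, and summed oocyte markers from 1301 to 1416 and from 1505 to 1684 CPM. Germline markers overlapped, at 1005 to 1042 and 852.1 to 1098 CPM, as did summed markers of body wall muscle and pharynx. Summed hypodermis markers ran from 21.37 to 44.51 and from 66.51 to 148.1 CPM, most of it dpy-13. Summed neuron markers ran from 117.8 to 150.7 and from 172.5 to 242.4 CPM, most of it snb-1. The means of dpy-7, bli-1, snt-1 and unc-64 from these lists were lower with copper, without a call. The adult epidermis marker col-19 ran from 2113 to 2675 and from 2831 to 4528 CPM. Since RNA came from whole worms, fewer cells of a type and less RNA per cell cannot be told apart, and the part of tissue makeup in the gene groups above was not tested.

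The response of the mutant differed from that of the control at many genes. The interaction, the amount by which the mutant's log2 fold change exceeds the control's, was called for 527 genes, with 402 higher (4.11% of those tested) and 125 lower (1.28%). Of the 219 genes called in the mutant, 153 also had a called interaction, a measure that shares the 8 mutant libraries with the mutant response. The control comparison itself called 174 genes, 45 higher (0.46%) and 129 lower (1.32%), and 33 genes were called in both genotypes, 5 in the same and 28 in the opposite direction. Of the 4 untreated control libraries 3 were poor in long transcripts, as was 1 treated control library. Without these 4 and treated mutant replicate 4 the balance of directions turned, with the interaction called for 1191 genes, 511 higher and 680 lower, 408 of them shared with the 527. The control comparison then called 468 genes, 232 higher and 236 lower. In both, the untreated control rests on 1 library, and its spread is borrowed from the remaining 3 groups. Genes with a called interaction in 16 libraries had a median transcript length of 901.5 bp for positive and 2199 bp for negative differences. The count was 2159 without untreated control replicate 2, 2055 without treated control replicate 1, 349 and 351 without untreated mutant replicates 1 and 4, and 350 and 330 without treated control replicates 3 and 4.

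Infection response differed by gene. irg-5 rose in the control as well, from a mean of 1.77 to 8.42 CPM (2.20 ± 0.41, adjusted p = 0.0109), and its response was larger in the mutant by 4.25 ± 0.60 on the log2 scale (interaction adjusted p = 0.00102). irg-4 rose by 2.38 ± 0.47 in the control (adjusted p = 0.0148), a call that ended without treated control replicate 4 (adjusted p = 0.0584), and its interaction of 1.19 ± 0.64 missed the threshold (adjusted p = 0.211). clec-45 rose in the control too (adjusted p = 0.00551), from 2.75 CPM in untreated control replicate 1 and 0 in the other 3 to 10.7, 13.3, 12.5 and 11.2 CPM.

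Single genes of fat breakdown and proteolysis moved in opposite directions in the genotypes, whereas 3 of the 31 fat breakdown genes and 7 of the 18 gut proteases had a called interaction. acs-2 fell in the control from a mean of 26.0 to 2.76 CPM (-3.23 ± 0.51, adjusted p = 0.00344), so its interaction was 7.16 ± 0.72 (adjusted p = 4.58e-05). icl-1 fell in the control by 2.75 ± 0.46 (adjusted p = 0.00587) and had an interaction of 5.09 ± 0.65 (adjusted p = 0.0005). asp-12 fell in the control by 2.76 ± 0.27 (adjusted p = 2.40e-05), and its interaction reached 5.11 ± 0.38 (adjusted p = 1.16e-06). The same held for tts-1, which fell in the control from 669 to 66.2 CPM (-3.34 ± 0.60, adjusted p = 0.00871), and cnc-4, at -2.84 ± 0.44 (adjusted p = 0.00327). For these 5 genes the untreated mutant level, such as 1.89 CPM for acs-2 and 4.06 CPM for tts-1, was below the untreated control level. Untreated control libraries spread widely, with replicates 1 to 4 at 1009, 272, 1295 and 98.3 CPM for tts-1. They read 237, 145, 357 and 36.0 CPM for icl-1, whose treated control libraries ran from 21.4 to 42.0 CPM, so these overlapped. For acs-2 they read 37.6, 20.2, 39.2 and 6.74 CPM, against at most 5.75 CPM in the treated control. Untreated control replicates 1, 3 and 4 were poor in long transcripts.

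Among collagens named for body shape, 8 of 12 had a called positive interaction and 7 of 12 fell in the control, while 0 were called in the mutant from 16 libraries. With 1 library left out the interaction count ran from 7 to 10. The control count ran from 1 to 9: it was 3 without untreated control replicate 1 or treated control replicate 2, 1 without treated control replicate 3 or 4, and 4 without untreated mutant replicate 1, 2, 3 or 4 or treated mutant replicate 1 or 2. Their summed level in untreated control replicates 1 to 4 was 663, 201, 67.5 and 70.2 CPM, and that of the hypodermis markers 128, 40.8, 7.94 and 8.43 CPM, so untreated control replicate 1 stood far above the others in both.

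dpy-13 read 109, 32.7, 5.29 and 7.86 CPM in the untreated control and 1.07, 5.24, 0.676 and 1.14 CPM in the treated control, a log2 fold change of -4.38 ± 0.83 (adjusted p = 0.0127). Without untreated control replicate 1 the untreated mean dropped from 38.8 to 15.3 CPM and the change was -3.09 (adjusted p = 0.0345), and the call ended without treated control replicate 3 or 4 (highest adjusted p = 0.0705). Its interaction was 6.73 ± 1.07 (adjusted p = 0.00202), and 5.44 (adjusted p = 0.00143) without untreated control replicate 1. dpy-5 had -3.79 ± 0.88 in the control (adjusted p = 0.0371), a call that ended in 10 of the 16 fits that left out 1 library, with -2.16 (adjusted p = 0.217) without untreated control replicate 1. Its interaction was 5.65 ± 1.16 (adjusted p = 0.00847), and 4.02 (adjusted p = 0.0161) without that library.

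Vitellogenins gave 4 called negative interactions of 6. vit-4 had a log2 fold change of 0.44 ± 0.36 in the control (adjusted p = 0.447) and an interaction of -3.10 ± 0.52 (adjusted p = 0.00251). vit-1 had -0.05 ± 0.27 in the control (adjusted p = 0.919) and an interaction of -2.43 ± 0.39 (adjusted p = 0.00202). fat-7 had -0.95 ± 0.30 in the control (adjusted p = 0.121), and its interaction was -0.69 ± 0.42 (adjusted p = 0.252). The interaction of cua-1 was -1.75 ± 0.60 (adjusted p = 0.0942) and that of mtl-2 was 2.35 ± 0.69 (adjusted p = 0.0543).

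**Figure D5:**
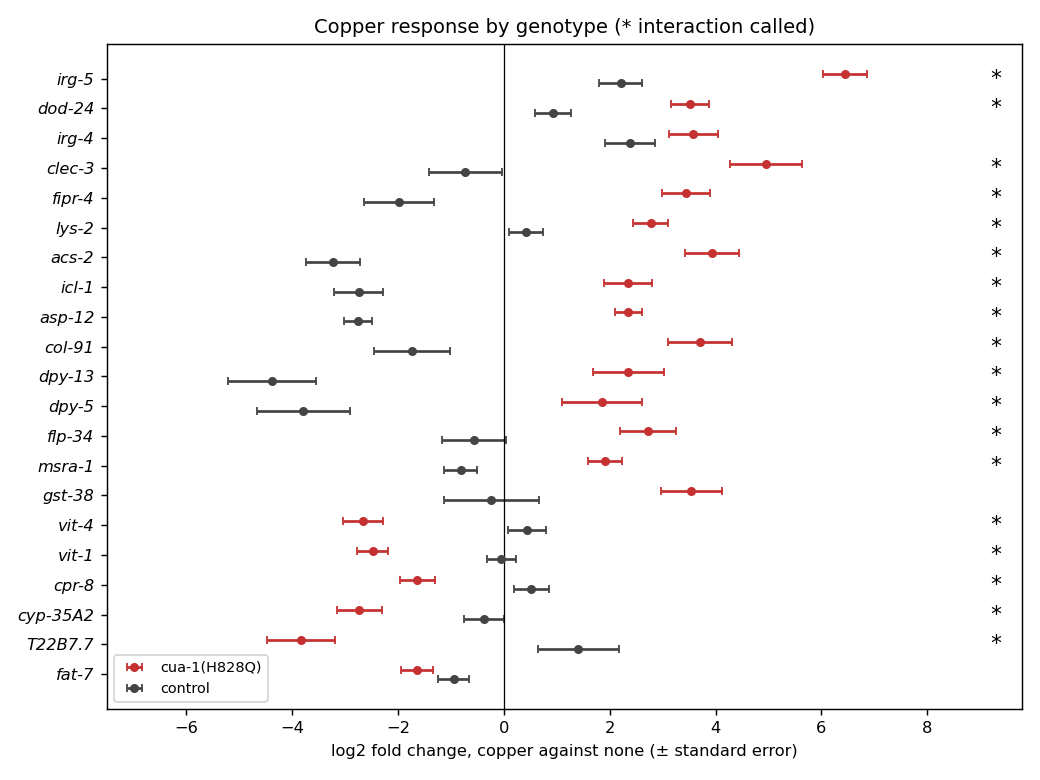
Log2 fold change of copper against none, with the standard error of the model, for 21 genes in cua-1(H828Q) worms (red) and control worms (grey), from the fit to 16 libraries. Asterisks mark a called interaction. acs-2, icl-1, asp-12 and dpy-13 (not called in the mutant) lie on opposite sides of 0 in the genotypes, and irg-5 lies above 0 in both, at 6.45 and 2.20.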

How the data were processed

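The authors deposited unnormalised read counts of 46904 genes in 16 libraries made by a 3′ digital mRNA service. Reads passed through bcl2fastq, STAR 2.6.0a and HTSeq with build ce11, per the submitters' processing notes; the annotation release and the strand setting are not given in the sources used here, so reads of overlapping or antisense genes cannot be told apart. Each column was matched to its sample by its heading, with 0 columns left over. RefSeq symbols were matched for 45785 genes by identifier, and positions and transcript lengths came from the Ensembl annotation of the same assembly for 45973.

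Tests used edgeR 4.0.16 (limma 3.58.1, R 4.3.3) with TMM factors, filterByExpr defaults, 1 mean per group over 16 libraries (12 residual degrees of freedom), the robust quasi-likelihood test and Benjamini-Hochberg adjusted p under 0.05 over 9787 genes; the code was tested on simulated data. A CPM is given ± SD over its group's 4 libraries, and a log2 fold change ± its standard error. Genes with 1 to 3 counts in a group get a ratio with an exact counting interval.

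Alternatives were DESeq2 1.42.0, limma-voom, other scalings and filters, a replicate block, length adjustment (lowess span 0.3), the length balance as a covariate, fits to the mutant libraries alone, a fit without the 5 libraries poor in long transcripts (balance below -0.5) and leaving out each library. The text names cua-1, up to 10 rises and 10 falls among called genes without overlap whose average log2 CPM reached 2 (with and without treated replicate 4), up to 4 members of a list by smallest p, fixed copper, metal, stress and yolk genes, and up to 5 called interactions in each direction. The tissue markers ifb-2, act-5, ges-1 and elt-2 were named after their values were seen and are not among the 80 genes counted below. The same holds for dpy-7, bli-1, snb-1, snt-1, unc-64 and col-19. The members and lists were chosen with earlier results of these data known.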

Additional observations from a re-analysis of the deposited data

Results flagged for a closer look

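Among 160 groups of 4 mutant libraries (80 named genes, treated and untreated), 21 held a library set far from the other 3; chance flags about 1 in 20 groups, and 12 of the 21 were treated replicate 4. That library was the high value for lys-2 (786 CPM), spp-18 (88.3), asp-17 (4.75), gst-24 (27.7), nlp-17 (57.7), cuc-1 (64.6), F58G6.3 (27.4), sod-1 (393.9) and rps-8 (8216), and the low value for vit-3 (180.7), vit-5 (138) and vit-6 (688.5). Treated replicate 1 was low for cnc-4 (11.5 CPM). Untreated replicate 3 was low for drd-10 (36.1), vit-3 (1584) and vit-4 (2002) and high for msp-53 (20.3). Untreated replicate 4 was high for fat-7 (123.8) and asp-12 (39.65), and untreated replicate 1 was high for abf-4 (0.441) and low for F58G6.3 (21.6).

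The copper response differed between the genotypes, by edgeR's interaction test, for 48 of the 80 named genes. Over all genes tested 4.11% had a called positive and 1.28% a called negative interaction. Many named genes were chosen by their mutant response, which is part of the interaction, or by a called interaction. The count among them is therefore no separate result. Immune genes with a positive difference were irg-5 (4.25), dod-24 (2.604), C32H11.4 (2.12), clec-3 (5.68), clec-52 (5.55), clec-66 (3.14), fipr-4 (5.43), cnc-4 (5.90), lys-2 (2.35) and spp-18 (3.44). In the control itself irg-5 was called higher (log2 2.20), while clec-52 (-2.40) and cnc-4 (-2.84) were called lower. The others in this list were not called there. Metabolic, protease and stress genes with a positive difference were acs-2 (7.16), icl-1 (5.09), asp-12 (5.11), asp-14 (3.88), msra-1 (2.73) and sqst-1 (2.39). The ribosomal protein gene rpl-23A.1 (1.71) had one too. Collagens were col-65 (7.11), col-91 (5.44), col-161 (4.94), col-162 (5.43), dpy-13 (6.73) and dpy-5 (5.65). Peptide genes were flp-34 (3.29), flp-8 (3.19), nlp-17 (2.40) and nlp-33 (2.73), and others were B0348.2 (7.60), tts-1 (7.93) and Y54H5A.5 (5.41).

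Negative differences were found for the yolk genes vit-1 (-2.43), vit-3 (-2.37), vit-4 (-3.10) and vit-5 (-2.51). The same sign held for clec-218 (-3.14), T22B7.7 (-5.25), drd-10 (-2.88), lam-3 (-4.83), D1086.3 (-4.64), cyp-35A2 (-2.35), C33G8.2 (-3.77), gba-4 (-2.70), Y40H7A.10 (-2.86), acs-1 (-2.53), elo-6 (-2.17), cpr-8 (-2.15) and ugt-22 (-2.38). Y48E1B.8 had a fitted difference of -7.06, which depends on the prior count since its treated mutant libraries held 0 counts.

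Of the 48 interactions, 41 stayed called whichever of the 16 libraries was left out. Those of Y48E1B.8, elo-6 and rpl-23A.1 ended in 13 of the 16 fits, being kept without untreated control replicate 2, untreated control replicate 4 or treated control replicate 1. C33G8.2 lost the call in 8 fits (without untreated control replicate 3, treated control replicates 2, 3 and 4, untreated mutant replicates 1 and 4, or treated mutant replicates 1 and 2), lam-3 in 4 (without untreated mutant replicate 4, treated mutant replicate 2 or treated control replicates 3 and 4), flp-34 in 2 (untreated mutant replicate 4, treated control replicate 3) and cyp-35A2 in 1 (treated mutant replicate 2). Without the 5 libraries poor in long transcripts, a fit with 1 untreated control library, whose spread is borrowed from the remaining 3 groups, the calls of lys-2 (1.24, adjusted p = 0.136) and col-91 (3.24, adjusted p = 0.107) ended.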

How the results depend on the processing

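The mutant response was called for 219 genes (174 higher, 45 lower), and the counts kept within 1.5 times under DESeq2 or upper-quartile factors, both other filters, limma-voom and a minimum log2 change of 1. They moved with DESeq2's test (432; 314 higher, 118 lower), with only the 8 mutant libraries (473; 360, 113), with the length balance as covariate (397; 239, 158), without the 5 libraries poor in long transcripts (1420; 746, 674), with the 7 mutant libraries (1428; 754, 674) and with these adjusted for length (1392; 763, 629). Length adjustment of all 16 gave 293 genes, 78 of them lower. Leaving out 1 library gave 112 to 320 genes, 84 to 259 higher and 20 to 67 lower. The interaction (527 genes) moved to 1031 with DESeq2, 1191 without the 5 libraries (1 untreated control library left) and 245 with the covariate, and ran from 330 to 2159 with 1 library left out. The causes were not tested.

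Of the 60 called genes named, 49 kept direction and call under every alternative, and 0 reversed. They were named largely for a large change or a small p, so this does not describe all 219 calls. Of the named genes not called, 14 were called under at least 1 alternative. Uncalled genes that reversed were cuc-1 (0.0198 with upper-quartile factors; -0.50 to 0.10 with 1 library left out), sod-1 (-0.15 with the covariate, -0.016 in the 7 libraries adjusted for length), hsp-6 (0.066 with length adjustment) and hsp-4. The last was at 0.052 without the 5 libraries and with length adjustment, 0.10 with the covariate, 0.057 in the 7 libraries, 0.13 in these adjusted for length, and -0.35 to 0.072 with 1 library left out.

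Replicate numbers shared across groups did not pair the mutant libraries: deviations of same-numbered libraries correlated at 0.20, -0.04, -0.17 and -0.04, and not every library correlated best with its own number. With a replicate block 162 genes were called (129 higher, 33 lower) and 379 for the interaction. Among named genes lam-3, acs-1 and C33G8.2 lost their calls under it.

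Depth limits genes under about 1 CPM, where 3 counts are the floor. With 4 libraries a group and 1 apart, uncalled genes are not shown to be unchanged.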

Other observations

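Groups not described above mostly had few calls from 16 libraries, where 2.24% of all genes were called. In the 7 mutant libraries 7.7% of all genes were called higher and 6.89% lower. Of 36 transthyretin-related genes 1 rose and 0 fell (median log2 fold change 0.40), and 6 were called higher and 0 lower in the 7 mutant libraries. Of 14 lipid-binding protein genes 0 were called by edgeR (4 at an unadjusted p under 0.05, 2 by DESeq2, 1 by limma-voom), with 5 higher and 1 lower in the 7 libraries, where their median was 0.23. Oocyte and eggshell genes gave 0 calls of 38 by edgeR, DESeq2 or limma-voom (1 at an unadjusted p under 0.05, median 0.32), with 7 higher and 0 lower in the 7 libraries. Basement membrane genes gave 0 higher and 1 lower of 16 (median -0.55, median transcript length 5808 bp), with 1 higher and 5 lower in the 7. Of 71 nuclear hormone receptor genes 0 were called by edgeR (6 at an unadjusted p under 0.05, 1 each by DESeq2 and limma-voom, median 0.05), with 6 higher and 1 lower in the 7.

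Proteasome, mitochondrial ribosome and oxidative phosphorylation genes had 0 calls from 16 libraries. At 2.24% of all genes called, that does not set lists of this size apart. In the 7 libraries 7.7% of all genes were called higher and 6.89% lower. Cytosolic ribosomal protein genes, described above, had 58 of 77 called higher there. Proteasome genes gave 0 calls of 33 in either edgeR fit, by DESeq2 or by limma-voom, and 0 had an unadjusted p under 0.05 (median 0.09). Mitochondrial ribosomal proteins gave 0 of 69, with 0 higher and 2 lower in the 7 libraries, and oxidative phosphorylation genes 0 of 67, with 1 higher and 3 lower.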
